A study of Mus musculus with 12 samples.

Results

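A group of 10 genes of mature and maturing neutrophils was followed in sorted bone marrow stem and progenitor cells: S100a8, S100a9, Camp, Ngp, Ltf, Lcn2, Mmp8, Mmp9, Cxcr2 and Retnlg. They are 10 of the 25078 genes in the deposited tables and were taken by gene symbol. The genes were selected on an earlier result from these same libraries, the difference in radiation response of mature neutrophil markers, which went with 1 irradiated library. The values below therefore describe the genes, and the number of them that passes a test supports nothing about the list. Enough reads to be tested were held by 9 of the 10, and Retnlg was left out of the tests by the filter on low counts.

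RNA sequencing covered LSK cells, the lineage-negative, Sca1-positive, c-Kit-positive fraction of mouse bone marrow that holds hematopoietic stem cells and multipotent progenitors. The cells came from wild-type mice (WT) or from mice at the preleukemic stage with the Cbfb-MYH11 fusion (CM), which inv(16) creates in human acute myeloid leukemia. After the sort, cells of each animal were split: one share received 3.5 Gy of radiation ex vivo (IR), the other was incubated alongside without it (NIR), and the harvest of both followed 24 h after it. WT NIR, WT IR, CM NIR and CM IR, the 4 groups, held 3 libraries each, and the 6 animals each gave 1 NIR and 1 IR library. All 12 libraries thus share the sort and the culture period, and no group is fresh marrow. The sources used here give neither the ages of the mice nor the promoter or Cre that switches the fusion on. Library names mark WT animals 1 and 3 as C, WT animal 2 as WT and all CM animals as CHW. What C and CHW stand for is not stated.

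Libraries held 68490566 to 110795261 counts in genes. The sort markers were present in every library, with Kit at 148 to 284 CPM (counts per 1000000 counts of the library, its size scaled by TMM) and Ly6a, which encodes Sca1, at 42.0 to 457 CPM. The IR library of CM animal 3 stands apart: its deviation from its group mean correlated at 0.13 with that of the NIR library of the same animal, against 0.41 to 0.84 for the other 5 animals. Fitted changes of the lower set described below that turn on it are given with and without it. Orders by RPKM, measures of spread and correlations include it. Library numbers also fall into a pair of series, series A with WT animal 1 and both CM animals 1 and 2, and series B with the remaining 3 animals (WT 2, WT 3 and CM 3).

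Neutrophils load their granules in sequence as they mature. Azurophil granule proteins such as myeloperoxidase are made at the promyelocyte stage, specific granule proteins (lactoferrin from Ltf, cathelicidin from Camp, the cathelin-related Ngp, lipocalin from Lcn2 and the collagenase from Mmp8) at the myelocyte and metamyelocyte stages, and gelatinase (Mmp9) later still. S100a8 and S100a9 encode the subunits of calprotectin, a calcium- and zinc-binding protein that fills the cytosol of neutrophils and monocytes and signals through TLR4 once released. Cxcr2 is the chemokine receptor that releases neutrophils from the marrow, and Retnlg is a resistin-like gene of mature neutrophils. Stem and progenitor cells are known to carry little of this RNA. In bulk RNA, fewer cells of a type and less RNA per cell cannot be told apart.

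The start regions of 6 of the genes are shown because the genes split into a lower and a higher set in CM (below) and lie apart in the genome. All 6 hold a match of a motif marked below. Each run is the 250 bases before the start site, 5′ to 3′ on the gene's strand, from RefSeq on GRCm38.p6. S100a8 is at chr3:90668821-90669070 (plus strand), S100a9 at chr3:90695722-90695971 (minus), Ngp at chr9:110419558-110419807 (plus), Ltf at chr9:111019042-111019291 (plus), Lcn2 at chr2:32387740-32387989 (minus) and Mmp8 at chr9:7558179-7558428 (plus). Capitals mark TTGCNNAA, a core of sites for C/EBP factors, and GAGGAAG, a core of sites for PU.1, each on either strand.
S100a8: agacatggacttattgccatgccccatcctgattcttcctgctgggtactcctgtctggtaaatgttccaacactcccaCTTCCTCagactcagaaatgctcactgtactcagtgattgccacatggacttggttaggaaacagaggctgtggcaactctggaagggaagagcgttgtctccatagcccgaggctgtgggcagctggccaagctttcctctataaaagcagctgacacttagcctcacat
S100a9: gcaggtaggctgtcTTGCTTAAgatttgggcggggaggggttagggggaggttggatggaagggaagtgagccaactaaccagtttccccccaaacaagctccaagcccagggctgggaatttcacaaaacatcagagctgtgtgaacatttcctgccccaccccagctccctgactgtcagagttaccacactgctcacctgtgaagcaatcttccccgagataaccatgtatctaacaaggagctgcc
Ngp: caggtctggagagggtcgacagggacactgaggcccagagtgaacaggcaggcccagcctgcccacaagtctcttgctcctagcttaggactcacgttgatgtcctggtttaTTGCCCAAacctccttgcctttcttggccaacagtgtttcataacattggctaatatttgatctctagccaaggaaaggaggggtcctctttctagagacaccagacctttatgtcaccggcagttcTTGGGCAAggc
Ltf: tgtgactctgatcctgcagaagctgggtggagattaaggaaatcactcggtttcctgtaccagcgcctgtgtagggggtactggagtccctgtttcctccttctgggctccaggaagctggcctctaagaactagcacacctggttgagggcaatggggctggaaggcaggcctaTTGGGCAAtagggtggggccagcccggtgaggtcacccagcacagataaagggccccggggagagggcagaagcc
Lcn2: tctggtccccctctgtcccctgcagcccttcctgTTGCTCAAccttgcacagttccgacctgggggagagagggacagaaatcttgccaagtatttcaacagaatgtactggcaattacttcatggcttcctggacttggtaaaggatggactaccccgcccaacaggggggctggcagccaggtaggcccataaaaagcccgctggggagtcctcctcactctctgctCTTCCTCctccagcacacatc
Mmp8: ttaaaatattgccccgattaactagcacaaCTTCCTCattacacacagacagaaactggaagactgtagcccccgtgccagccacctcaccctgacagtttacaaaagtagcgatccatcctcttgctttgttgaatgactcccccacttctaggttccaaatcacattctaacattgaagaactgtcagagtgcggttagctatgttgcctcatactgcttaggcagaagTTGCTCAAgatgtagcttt
The windows searched ran from 250 bases before to 50 after the start site, and no match of one motif overlapped a match of the other. TTGCNNAA was found in 6 of the 9 members with a window: S100a9, Ngp, Ltf, Lcn2, Mmp8 and Retnlg. It is in 10.8% of all 32851 windows of the same length. The matches begin at -236 in S100a9, -138 and -11 in Ngp, -75 in Ltf, -216 in Lcn2, -19 in Mmp8 and -246 in Retnlg. GAGGAAG was found in S100a8 (-171), Lcn2 (-21) and Mmp8 (-220), 3 of 9, and in 13.6% of all windows. Both motifs thus occur in genes of the lower and of the higher set. Camp of the lower set and Cxcr2 of the higher set, not shown, had a window without a match of either motif. Mmp9 had no window. A match describes the letters and is no measure of binding.

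The calprotectin genes S100a8 and S100a9 and the specific granule genes Camp, Ngp and Ltf had every CM library below every WT library. Of these 5, called the lower set here, only S100a8 and S100a9 passed the test of genotype given further on. Retnlg had the same order of libraries at 11 counts or fewer, and Mmp9 overlapped between the genotypes without radiation. The libraries of a genotype come from 3 animals, each measured without and after radiation. Within a condition, all CM libraries lay below all WT libraries in 7.84% of all tested genes without radiation and 8.36% after it. They lay above in 8.14% and 9.23%. No share was taken over both conditions together. In cells without radiation, S100a8 had a mean of 77.8 ± 38.1 CPM in WT and 5.59 ± 2.92 CPM in CM (SD, n = 3), 13.9-fold lower. Ngp had 45.7 ± 30.1 CPM in WT and 1.71 ± 1.20 in CM, 26.7-fold lower. In contrast, Lcn2 and Cxcr2 were 4.78-fold and 4.01-fold higher in CM. Both directions occurred among the specific granule genes, with Camp, Ngp and Ltf on one side and Lcn2 and Mmp8 on the other. Of these granule genes only Lcn2 passed the test of genotype without radiation. Mmp8 overlapped between the genotypes in both conditions.

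S100a8 had 121, 63.4 and 49.0 CPM in WT NIR animals 1, 2 and 3 and 4.90, 3.09 and 8.80 CPM in CM NIR animals 1, 2 and 3. After radiation it had 56.0, 90.8 and 44.2 CPM in WT and 7.06, 6.29 and 35.4 CPM in CM. All 6 CM libraries lay below all 6 WT libraries, and the IR library of CM animal 3 was the nearest to WT.

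S100a9, the partner subunit, had 97.9, 49.9 and 35.1 CPM in WT NIR and 2.50, 3.45 and 5.56 CPM in CM NIR. In the IR libraries it had 46.6, 68.4 and 33.8 CPM in WT and 2.81, 5.36 and 28.6 CPM in CM. All 6 CM libraries again lay below all 6 WT libraries, with CM animal 3 after radiation just under the lowest WT library, and CM animals 1 and 2 stood in the reverse of their S100a8 order in both conditions. Per length (RPKM), S100a8 exceeded S100a9 by 1.60 to 1.86 times in the 6 WT libraries and by 1.19 to 3.36 times in the 6 CM libraries. Per length, S100a8 was the highest of the 10 members in WT NIR (195 ± 94.5 RPKM) and the fourth in CM NIR (14.0 ± 7.31 RPKM).

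Ngp, a cathelin-fold protein of specific granules, had 79.4, 36.2 and 21.4 CPM in WT NIR and 0.386, 2.71 and 2.05 CPM in CM NIR. After radiation it had 36.1, 64.6 and 31.2 CPM in WT and 0.697, 4.67 and 20.6 CPM in CM. The groups did not overlap by genotype in either condition, and CM animal 1 was the lowest both times.

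Camp, the cathelicidin precursor, was near the limit of counting in CM. It had 6.85, 2.69 and 1.93 CPM in WT NIR, and 4, 21 and 1 counts (0.0532, 0.267 and 0.0135 CPM) in CM NIR. After radiation it had 2.49, 2.77 and 1.82 CPM in WT and 1, 37 and 137 counts (0.0120, 0.434 and 1.64 CPM) in CM. The library of CM animal 3 moved from 1 count to just under the lowest WT library.

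Ltf, lactoferrin, had 9.31, 4.70 and 3.74 CPM in WT NIR and 4, 79 and 1 counts (0.0532, 1.0 and 0.0135 CPM) in CM NIR. After radiation it had 4.67, 5.59 and 3.53 CPM in WT and 10, 65 and 281 counts (0.12, 0.763 and 3.36 CPM) in CM. As for Camp, CM animal 3 had the lowest library without radiation and the highest CM library after it.

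Lcn2, the iron-siderophore-binding lipocalin, was on the other side. It had 43.9, 31.8 and 25 CPM in WT NIR and 195, 62.8 and 225 CPM in CM NIR. After radiation it had 25.3, 34.6 and 21.9 CPM in WT and 238, 91.9 and 139 CPM in CM. All 6 CM libraries were above all 6 WT libraries, and CM animal 2 was the lowest of CM in both conditions.

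Cxcr2 had 24.2, 17.5 and 14.2 CPM in WT NIR and 73.1, 32.8 and 118 CPM in CM NIR. After radiation it had 23.6, 23.0 and 22.8 CPM in WT and 77.6, 42.7 and 74.3 CPM in CM. The genotypes did not overlap, and the lowest CM animal was again animal 2.

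Mmp8, the neutrophil collagenase, had 108, 139 and 95.9 CPM in WT NIR and 636, 99.0 and 1427 CPM in CM NIR. In the IR libraries it had 63.1, 116 and 61.5 CPM in WT and 655, 114 and 542 CPM in CM. CM animals 1 and 3 stood above every WT library, while CM animal 2 lay within the WT range in both conditions. Per length, Mmp8 was the first of the 10 in CM NIR (288 ± 268 RPKM) and the third in WT NIR (46.0 ± 9.05 RPKM). The ratio of Mmp8 to S100a8 per length was 0.143 to 0.350 in the WT libraries and 2.45 to 25.9 in the CM libraries, with no overlap. S100a8 alone already separated the genotypes, so the ratio is a description and no further result.

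Mmp9 and Retnlg were close to the limit of counting in all groups. Mmp9, gelatinase B, had 0.663, 0.0543 and 0.179 CPM in WT NIR, 0.610, 0.149 and 0.158 in WT IR, 0.0931, 0.114 and 0.0540 in CM NIR and 0.144, 0.106 and 0.12 in CM IR. WT animal 1 was the highest of all libraries both times, and the other WT libraries lay close to CM. Retnlg had 11, 5 and 9 counts in WT NIR, 4, 4 and 10 in WT IR, 2, 0 and 2 in CM NIR and 1, 0 and 2 in CM IR.

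**Figure D1:**
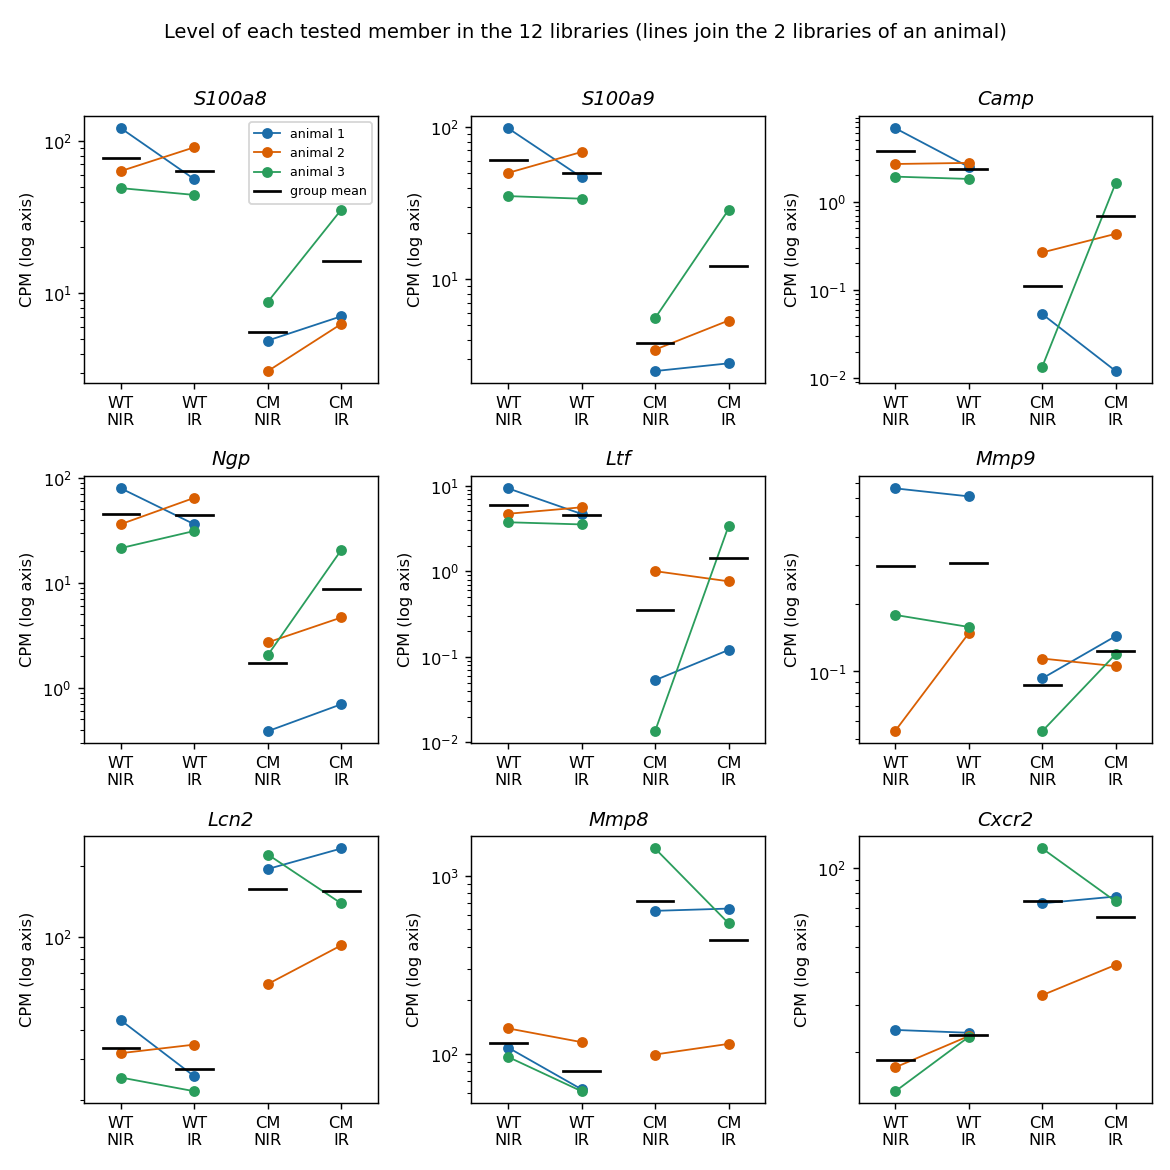
Level of each of the 9 tested genes in the 12 libraries, in CPM on a log axis, by group. Points are libraries, colours are the animal numbers within a genotype, lines join each animal's NIR library to its IR library and bars are group means. S100a8, S100a9, Camp, Ngp and Ltf lie lower in every CM library than in every WT library, and Lcn2 and Cxcr2 lie higher.

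Beside one another per length, the rank of the members differed between the genotypes. In WT NIR the order by mean RPKM was S100a8 (195), S100a9 (115), Mmp8 (46.0), Lcn2 (38.8), Ngp (38.7), Camp (6.28), Cxcr2 (6.03), Ltf (2.12), Retnlg (0.177) and Mmp9 (0.0925). Neighbours whose libraries overlapped there were S100a8 and S100a9, the run from Mmp8 through Lcn2 to Ngp, Camp and Cxcr2, and Retnlg and Mmp9. In WT IR it was S100a8 (161), S100a9 (93.8), Ngp (37.5), Mmp8 (32.4), Lcn2 (31.7), Cxcr2 (7.52), Camp (3.90), Ltf (1.66), Retnlg (0.0963) and Mmp9 (0.0954). There S100a8 overlapped S100a9, Ngp overlapped Mmp8, Mmp8 overlapped Lcn2 and Retnlg overlapped Mmp9, and the other neighbours were separate.

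In CM NIR the order was Mmp8 (288), Lcn2 (185), Cxcr2 (24.1), S100a8 (14.0), S100a9 (7.19), Ngp (1.45), Camp (0.183), Ltf (0.128), Retnlg (0.0288) and Mmp9 (0.0269). Only Lcn2 against Cxcr2 and S100a9 against Ngp were separate among these neighbours. In CM IR it was Lcn2 (181), Mmp8 (176), S100a8 (40.7), S100a9 (22.9), Cxcr2 (21.0), Ngp (7.30), Camp (1.14), Ltf (0.506), Mmp9 (0.0383) and Retnlg (0.0194), and every pair of neighbours overlapped. All 10 genes together held 0.0210 to 0.170% of a library's counts.

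The genotype comparison asked how these genes differ between preleukemic and wild-type cells. Without radiation, 4 of the 9 tested members passed edgeR's quasi-likelihood test with Benjamini-Hochberg adjustment over all 14599 genes: S100a8 and S100a9 lower, Lcn2 and Cxcr2 higher. Over all tested genes, 1.62% passed (0.938% higher and 0.685% lower). S100a8 fell by 3.80 ± 0.74 on the log2 scale (SE, adjusted p = 0.0376, edgeR) and S100a9 fell by 3.99 ± 0.83 (adjusted p = 0.0435, edgeR). Lcn2 rose by 2.26 ± 0.48 (adjusted p = 0.0483, edgeR) and Cxcr2 by 2.0 ± 0.41 (adjusted p = 0.0428, edgeR).

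The other 5 did not pass in edgeR's test. Their log2 fold changes were -5.07 ± 1.30 for Camp (adjusted p = 0.0858), -4.73 ± 1.14 for Ngp (adjusted p = 0.0720), -4.04 ± 1.33 for Ltf (adjusted p = 0.176), 2.66 ± 0.84 for Mmp8 (adjusted p = 0.157) and -1.73 ± 0.86 for Mmp9 (adjusted p = 0.389). The fitted differences of Camp, Ngp and Ltf were as large as those of calprotectin, and their spread between libraries was larger. The median over the 9 was -3.80, against 0.02 over all tested genes. By levels alone, 5 of 9 had every CM NIR library below every WT NIR library (7.84% of all tested genes) and 2 of 9 had every one above (8.14%).

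These calls lie close to the threshold and depend on single libraries and on the library series. In the 12 fits that left out 1 library each, S100a8 passed in 4, Cxcr2 in 4, S100a9 in 3 and Lcn2 in 3, and each kept its direction in all 12. Leaving out any of the 6 WT libraries, or the NIR library of CM animal 1 or 3, ended the call of all 4 genes in edgeR's test. The NIR library of CM animal 2 ended that of S100a9, and the IR library of CM animal 3 that of Lcn2. The highest adjusted p in these edgeR fits were 0.164 for S100a8, 0.188 for S100a9, 0.205 for Lcn2 and 0.184 for Cxcr2. With the library series as a term only S100a8 of the members passed (1.23% of all tested genes), and without both libraries of CM animal 3 only S100a8 and S100a9 did (0.993%). DESeq2 called 8 members (6.32% of all), and limma-voom 2 (1.49%). At an unadjusted p under 0.05 there were 8 of 9 in edgeR's test (15.1%). Within series A, 1 WT against 2 CM animals, the difference of S100a8 in log2 CPM was -4.95, and within series B, 2 WT against 1 CM animal, it was -2.66. The same differences were -5.05 and -2.91 for S100a9, 1.33 and 2.99 for Lcn2, and 1.02 and 2.91 for Cxcr2. The direction was shared by both series, and its size was not.

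After radiation, the same comparison gave 0 of 9 members past the threshold in edgeR's test, where 0.664% of all tested genes passed. At an unadjusted p under 0.05 there were 6 of 9 (11.8% of all tested genes). DESeq2 called 4 (4.47% of all) and limma-voom 0 (1.07%), and edgeR's fit with the library series as a term called 0 (0.0959%). The log2 fold changes were -1.97 ± 0.69 for S100a8 (adjusted p = 0.253, edgeR), -2.02 ± 0.76 for S100a9 (0.300), -2.35 ± 1.02 for Ngp (0.395), -1.76 ± 1.09 for Camp (0.599) and -1.70 ± 1.19 for Ltf (0.655). On the higher side they were 2.52 ± 0.49 for Lcn2 (adjusted p = 0.0528, edgeR), 2.44 ± 0.83 for Mmp8 (0.238) and 1.49 ± 0.40 for Cxcr2 (0.129), and Mmp9 had -1.29 ± 0.82 (0.613). The median over the 9 was -1.70, against 0.02 over all tested genes. By levels, 6 of the 9 had all CM IR libraries below all WT IR libraries (8.36% of all tested genes), and 2 had all above (9.23%).

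The calls of this comparison depend on single libraries of CM animals 2 and 3. When the IR library of CM animal 3 was left out, S100a8 stood at -3.25 (adjusted p = 0.0244, edgeR) and S100a9 at -3.60 (adjusted p = 0.0188, edgeR), and Lcn2 at 2.60 (adjusted p = 0.0494, edgeR), so that 3 of 9 passed. Of all genes tested in that fit, 1.82% passed. The values of Ngp, Camp and Ltf in it were -4.03, -3.39 and -3.37, and they did not pass (adjusted p = 0.103, 0.231 and 0.287, edgeR). Without the NIR library of CM animal 2, which enters through the shared estimate of spread, 2 of 9 passed, Lcn2 at 2.52 (adjusted p = 0.0203, edgeR) and Cxcr2 at 1.49 (adjusted p = 0.0330, edgeR), with 1.55% of all genes tested there. Without both libraries of CM animal 3, S100a8 stood at -3.24 (adjusted p = 0.0235, edgeR) and S100a9 at -3.59 (adjusted p = 0.0247, edgeR), and 2 of 9 passed (1.38% of all).

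**Figure D2:**
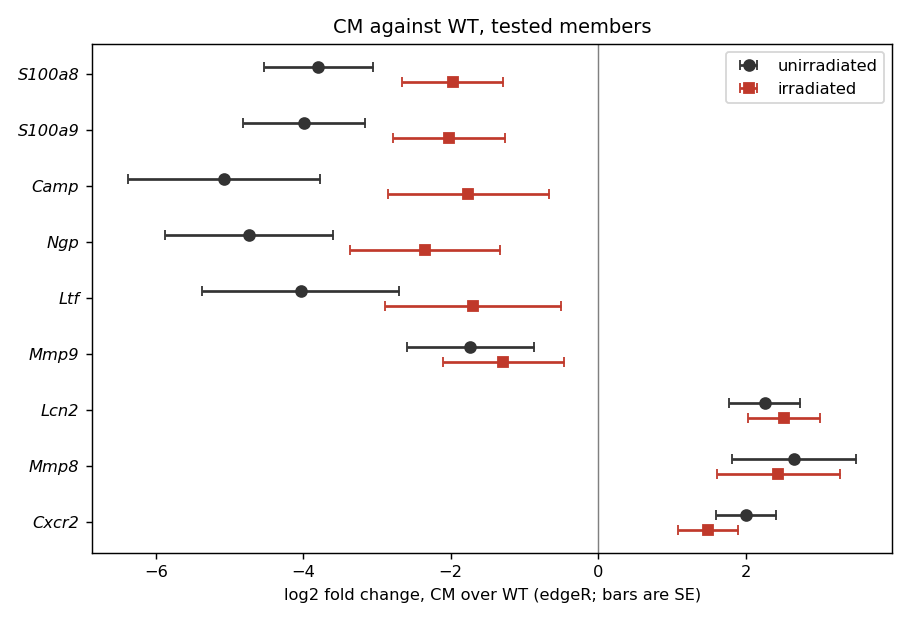
Log2 fold change of CM over WT for the 9 tested genes, without radiation (circles) and after it (squares), with SE bars from edgeR's quasi-likelihood fit. S100a8, S100a9, Camp, Ngp, Ltf and Mmp9 lie left of 0 and Lcn2, Mmp8 and Cxcr2 lie right of it in both conditions.

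The radiation comparison asked whether these genes respond within 24 h. In WT cells 0 of 9 passed edgeR's test (0.116% of all tested genes did), 0 of 9 had an unadjusted p under 0.05 (4.05% of all), and DESeq2 and limma-voom called 0 (0.959% and 0.212% of all). The fitted log2 changes in WT ran from -0.70 (Camp) to 0.31 (Cxcr2), with a median of -0.30 against -0.01 over all tested genes. WT animals differed in direction: S100a8 stood at -1.11, 0.52 and -0.15 log2 CPM, IR minus NIR, within animals 1, 2 and 3. Of the 9 tested members, Mmp8 alone had the same sign in all 3 WT animals, at -0.78, -0.26 and -0.64. That is 1 of 9, where 22.3% of all tested genes were lower in all 3 WT animals.

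In CM cells, too, 0 of 9 passed edgeR's test (0.00685% of all tested genes did), and DESeq2 and limma-voom called 0 (0.123% and 0.00685% of all). At an unadjusted p under 0.05 there were 2 of 9 (1.62% of all). The fitted log2 changes were 2.61 ± 1.22 for Camp, 2.33 ± 1.04 for Ngp, 1.98 ± 1.25 for Ltf, 1.67 ± 0.76 for S100a9 and 1.54 ± 0.68 for S100a8, and -0.72 ± 0.79 for Mmp8, -0.20 ± 0.39 for Cxcr2, -0.04 ± 0.46 for Lcn2 and 0.49 ± 0.89 for Mmp9. The lowest adjusted p among them was 0.99996.

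Within the CM animals, S100a8 was higher after radiation by 0.53, 1.02 and 2.0 log2 CPM in animals 1, 2 and 3, S100a9 by 0.17, 0.63 and 2.36, and Ngp by 0.81, 0.78 and 3.31. These 3 of 9 were higher in all 3 CM animals, as were 11.4% of all tested genes. Animal 3 held the largest change in each of the 3. Ltf stood at 0.90, -0.38 and 6.51, and Camp by -1.11, 0.66 and 5.48, so that the large fitted values of both came from animal 3, which held 1 count of each without radiation. The size of those 2 changes therefore depends on the prior count of 2 that was added. In the same animal Mmp8 was lower by 1.40 log2 CPM after radiation, from 1427 to 542 CPM, and Lcn2 and Cxcr2 had -0.69 and -0.67. Without the IR library of animal 3 the fitted CM responses were 0.25 for S100a8, 0.090 for S100a9, 0.65 for Ngp, 0.98 for Camp and 0.30 for Ltf. Without both of its libraries they were 0.75, 0.47, 0.81, 0.49 and -0.24, and Mmp8, Cxcr2 and Lcn2 stood at 0.07, 0.19 and 0.36.

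The difference between the CM and WT responses was 1.83 ± 0.95 for S100a8, 1.97 ± 1.05 for S100a9, 2.39 ± 1.40 for Ngp, 3.31 ± 1.61 for Camp and 2.34 ± 1.70 for Ltf on the log2 scale (SE). Without the IR library of CM animal 3 these differences were 0.54, 0.39, 0.70, 1.68 and 0.66, and without both libraries of that animal 1.04, 0.76, 0.86, 1.18 and 0.12. Of the 9 members 0 passed in edgeR's test or by DESeq2 or limma-voom (each 0.00% of all tested genes), and 0 had an unadjusted p under 0.05 in edgeR's test (0.726% of all). The comparison shares its libraries with those above.

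**Figure D3:**
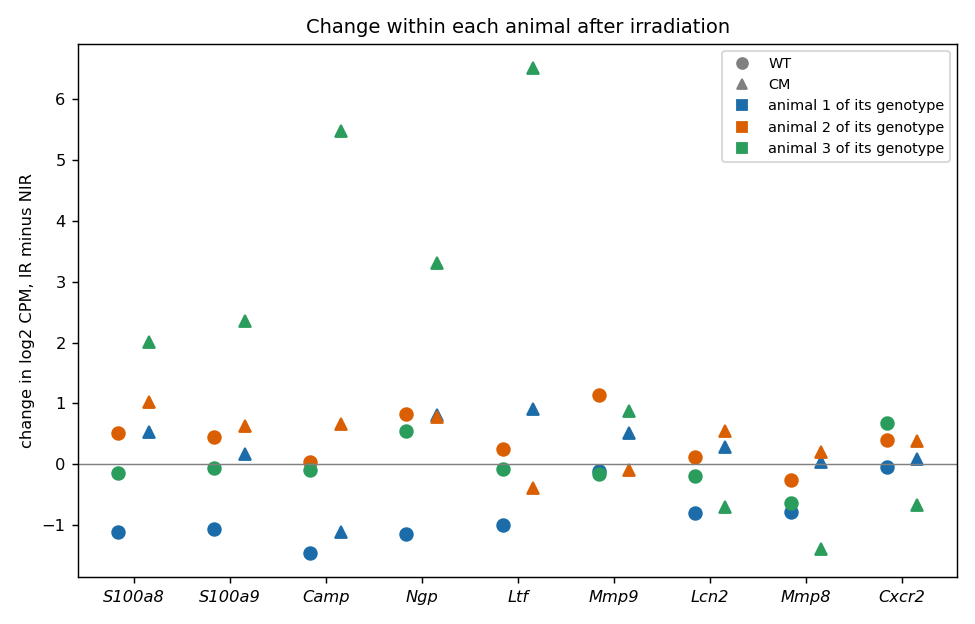
Change in log2 CPM from NIR to IR within each of the 6 animals, for the 9 tested genes. Circles are WT and triangles CM, and colours are animal numbers within a genotype. CM animal 3 has the highest value for S100a8, S100a9, Camp, Ngp and Ltf and the lowest for Mmp8.

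The members varied more between libraries of one group than most genes. They were selected on a difference that went with 1 irradiated library, which is among these libraries, so their spread is a description. The biological coefficient of variation in the edgeR fit was 0.999 for Ltf, 0.943 for Camp, 0.792 for Ngp, 0.654 for Mmp9, 0.643 for Mmp8, 0.604 for S100a9, 0.551 for S100a8, 0.391 for Lcn2 and 0.341 for Cxcr2. The median of all tested genes was 0.202, and the members lay between the 76.6th and the 99.3rd percentile. Within CM NIR the highest library was 14.4 times the lowest for Mmp8 and 2.85 times for S100a8, against a median of 1.42 over all tested genes. Within CM IR it was 29.5 times for Ngp and 10.2 times for S100a9, against 1.44. Animal 3 held the highest library of both genes there. CM IR animals 1, 2 and 3 had 0.697, 4.67 and 20.6 CPM for Ngp and 2.81, 5.36 and 28.6 CPM for S100a9. The range in WT IR was 1.04 times for Cxcr2 and 2.07 times for Ngp, against 1.20.

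Across the 12 libraries the members formed a pair of sets, which were grouped after their values were seen. Among S100a8, S100a9, Camp, Ngp and Ltf, Pearson's r of log2 CPM ran from 0.80 to 0.98 over 10 pairs, with S100a8 and S100a9 at 0.98. Among Lcn2, Mmp8 and Cxcr2 it ran from 0.90 to 0.96 over 3 pairs. Between the sets it ran from -0.84 to -0.47 over 15 pairs. Mmp9 had 0.49 to 0.54 with the first set and -0.51 to -0.40 with the second. The 12 libraries come from 6 animals and 2 genotypes, and the genotype difference itself enters these values, so they are given as a description.

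**Figure D4:**
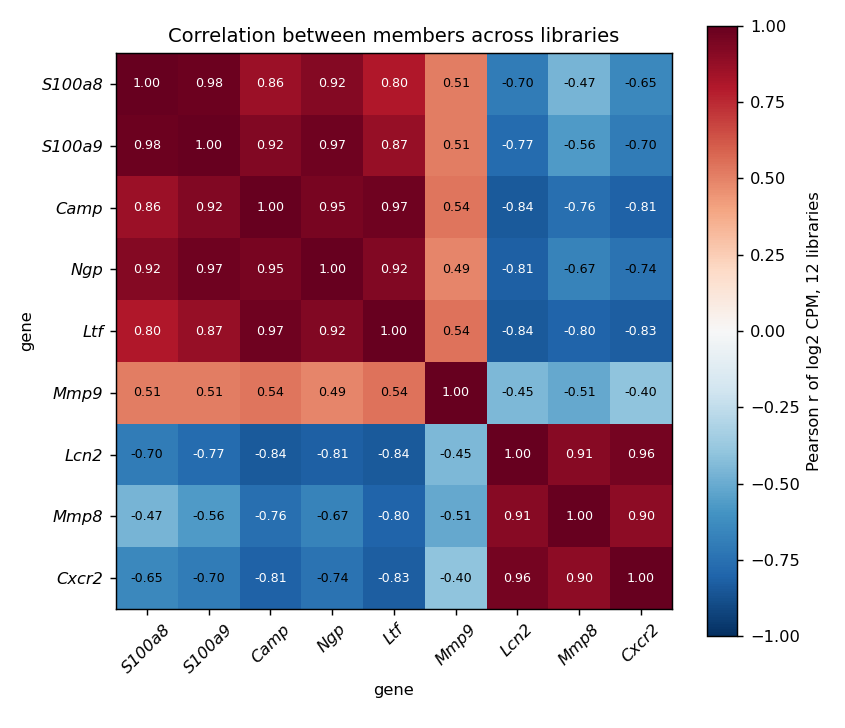
Pearson's r of log2 CPM between each pair of the 9 tested genes across the 12 libraries. The block of S100a8, S100a9, Camp, Ngp and Ltf and the block of Lcn2, Mmp8 and Cxcr2 are positive within and negative between.

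Plotting the mean of each set against the other placed the libraries in the same way. WT libraries had 3.61 to 5.17 mean log2 CPM for the 5 genes and 4.97 to 5.61 for the 3. CM libraries other than the IR library of animal 3 had -1.01 to 1.17 for the 5 and 5.88 to 8.39 for the 3. The IR library of CM animal 3 had 3.37 and 7.47: near WT for the first set and within the CM range for the second. The libraries of CM animal 2 had the lowest values of the second set among CM, 5.88 and 6.26.

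**Figure D5:**
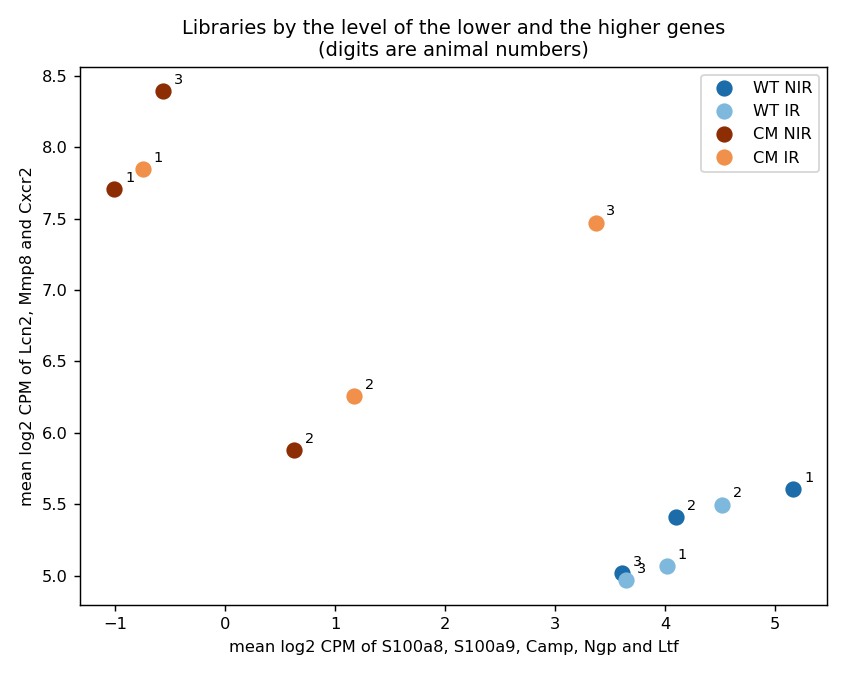
Each of the 12 libraries by the mean log2 CPM of S100a8, S100a9, Camp, Ngp and Ltf (x axis) and of Lcn2, Mmp8 and Cxcr2 (y axis). Colours are groups and digits are animal numbers. The IR library of CM animal 3, at 3.37 and 7.47, lies apart from the other CM libraries on the x axis and from WT on the y axis.

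Markers of other cell types moved with these genes, and their part in the results was not tested. The summed level of 12 monocyte and macrophage markers was 1170 to 2518 CPM in WT NIR, and 5181, 901 and 6058 CPM in CM NIR animals 1, 2 and 3. In CM IR it was 5633, 1129 and 3521 CPM. That is the order of Mmp8 among the CM animals, with animal 2 lowest. The 9 mast cell and basophil markers summed to 149 to 466 CPM in WT NIR, to 1108, 187 and 1523 CPM in CM NIR and to 1266, 233 and 814 CPM in CM IR, in the same order. In mean log2 CPM animal 2 was also the lowest of CM, but CM NIR animals 1 and 3 changed places in both lists. These animals had 7.13 and 7.10 for the monocyte and macrophage list and 4.13 and 4.04 for the mast cell and basophil list. Of these lists, 1 of 12 monocyte genes and 2 of 9 mast cell and basophil genes passed edgeR's test without radiation (Cx3cr1 lower, Tpsb2 and Mcpt4 higher). Of all tested genes, 1.62% passed. At an unadjusted p under 0.05 there were 3 of the monocyte and 8 of the mast cell and basophil genes (15.1% of all tested genes). DESeq2 called 2 and 8 of them (6.32% of all), and limma-voom 1 and 2 (1.49%). The median log2 fold changes of these lists without radiation were 0.59 and 2.85.

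Of the 9 eosinophil markers, 8 had a negative fitted log2 fold change in CM without radiation, as the lower set had. Siglecf had a positive one (1.72, adjusted p = 0.0481, edgeR), at 4.12 to 5.15 CPM in WT NIR and 7.21 to 22.1 CPM in CM NIR. With Siglecf included, the 9 markers summed to 93.4 to 177 CPM in WT NIR and 129 to 195 CPM in WT IR. In CM NIR the sums were 9.22 to 26.4 CPM, and in CM IR 24.3, 19.1 and 41.7 CPM, the last in animal 3. Of these, 5 of 9 were lower (0.685% of all tested genes) and 1 higher (0.938%) past the threshold in edgeR's test without radiation. Ear2 was at 0 in all 3 CM NIR libraries. The 11 T and NK cell markers summed to 10.9 to 15.9 CPM in WT and 2.78 to 10.5 CPM in CM, with the IR library of CM animal 3 the highest of CM, and Gzma was at 0 in CM NIR. Of these 11, 7 were tested, and all 7 had a negative fitted value in CM without radiation. Il2rb alone passed edgeR's test (1.62% of all tested genes), and 5 had an unadjusted p under 0.05 (15.1%). DESeq2 called 2 (6.32%) and limma-voom 1 (1.49%). The erythroid markers had the Mmp8 order within CM NIR, with sums of 77.5, 17.5 and 112 CPM in animals 1, 2 and 3. Megakaryocyte markers had it in their sums, at 427, 214 and 501 CPM, and not in their mean log2 CPM. Their mean log2 CPM was 2.92, 3.48 and 3.10, highest in animal 2. The 10 LSK genes summed to 909 to 1824 CPM over all libraries. Their sum was highest in animal 2 within CM, the animal lowest for the higher set, at 971, 1824 and 1152 CPM in CM NIR and 1022, 1768 and 1333 CPM in CM IR. Of the 10, none passed edgeR's test for genotype, and DESeq2 and limma-voom called 0. At an unadjusted p under 0.05 there was 1 of 10 without radiation (15.1% of all tested genes) and 0 after it (11.8%).

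Other late neutrophil genes held calls in both directions. Of 26 listed granule and secreted genes, 22 were tested, and 3 passed edgeR's test without radiation (1.62% of all tested genes). At an unadjusted p under 0.05 there were 8 (15.1% of all), and DESeq2 called 5 (6.32%) and limma-voom 2 (1.49%). These shares over all tested genes also stand beside the counts without radiation in the lists below. Slpi, a leukocyte protease inhibitor, fell by 3.64 on the log2 scale (adjusted p = 0.0340, edgeR), from 15.8 ± 4.33 to 1.27 ± 0.80 CPM. Stfa1, a stefin of a family of near-identical copies and so uncertain, fell by 2.33 (adjusted p = 0.0436, edgeR) at under 0.2 CPM. Lrg1, a leucine-rich secreted glycoprotein of granules, rose by 2.54 (adjusted p = 0.0434, edgeR), from 4.23 ± 1.04 to 24.7 ± 13 CPM. The median of the 22 was -0.10. After radiation 0 of 22 passed edgeR's test (0.664% of all tested genes), with 6 at an unadjusted p under 0.05 (11.8%). DESeq2 called 3 (4.47%) and limma-voom 1 (1.07%). Ly6g, the surface antigen of mature mouse neutrophils, was named after its values were seen: its group means were 0.0522 to 0.146 CPM, close to the limit of counting.

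Receptor and recruitment genes mostly had positive fitted values, as Cxcr2 had. Of 21 tested genes, 17 had a positive and 4 a negative log2 fold change in CM without radiation (median 0.86). At an unadjusted p under 0.05 there were 9 (15.1% of all tested genes), and DESeq2 called 6 (6.32%) and limma-voom 3 (1.49%). Of the genes past edgeR's test, 2 are described. Csf3r, the receptor for the granulocyte growth factor G-CSF, rose by 1.07 (adjusted p = 0.0376, edgeR), from 96.9 ± 7.97 to 203 ± 50.9 CPM. Mrgpra2b, a receptor with the close paralog Mrgpra2a and so uncertain, fell by 2.62 (adjusted p = 0.0290, edgeR) at under 0.5 CPM. In the 12 fits that left out 1 library each, Slpi, Lrg1, Csf3r and Mrgpra2b each lost the call in 8 and Stfa1 in 10, and their direction held in all 12.

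Azurophil granule genes and granulocyte transcription factors each held 1 call in edgeR's test without radiation. At an unadjusted p under 0.05 there were 7 of 10 azurophil granule genes and 4 of 10 transcription factors (15.1% of all tested genes). DESeq2 called 4 and 2 of them (6.32% of all), and limma-voom 1 and 1 (1.49%). Of 10 azurophil granule genes, Elane, neutrophil elastase, passed without radiation and fell by 1.39 (adjusted p = 0.0434, edgeR), from 245 ± 59.1 to 93.4 ± 34.2 CPM, and the median of the 10 was 0.25. Of 10 granulocyte transcription factors, Runx1, which binds DNA with core binding factor beta, rose by 0.38 (adjusted p = 0.0328, edgeR), from 212 ± 10.9 to 277 ± 6.15 CPM. Both genes lost the call in 8 of the 12 fits without 1 library. Cebpe, the factor that drives specific granule genes, was named after its values were seen and did not pass: 11.6 ± 5.41 CPM in WT NIR and 4.88 ± 0.71 in CM NIR, with a log2 fold change of -1.25 (adjusted p = 0.0704, edgeR).

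Among 8 calprotectin receptors and adaptors 0 passed edgeR's test without radiation, and DESeq2 and limma-voom called 0. At an unadjusted p under 0.05 there were 4 (15.1% of all tested genes). Tlr4 had 108 ± 40.8 CPM in WT NIR and 131 ± 71.9 in CM NIR, its partner Ly96 2.2 ± 0.78 and 4.85 ± 2.57, and Cd14 3.62 ± 0.81 and 6.99 ± 4.03. Among 6 subunits of the NADPH oxidase, the enzyme of the oxidative burst, 0 passed at adjusted or unadjusted p in edgeR's test and 0 by DESeq2 or limma-voom, with Cybb at 78.2 ± 26.8 CPM in WT NIR and 116 ± 87.4 in CM NIR. Of 4 tested MMP inhibitors 0 passed, with 1 at an unadjusted p under 0.05 and 0 by DESeq2 or limma-voom, and Timp1 had 5.09 ± 2.48 CPM in WT NIR and 5.69 ± 3.12 in CM NIR.

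Across all tested genes at 1 CPM or more, 11868 were ranked by how closely they followed the mean of the 9 members over the 12 libraries. The closest 5 were Tspan32 (r = 0.96), a tetraspanin of blood cells, Igf2r (r = 0.94), the receptor that clears IGF2, Csrp3 (r = 0.94), a LIM protein best known from muscle, Plxnc1 (r = 0.93), a semaphorin receptor, and Cd72 (r = 0.93), a B cell co-receptor. The member mean carries the genotype difference, so the genes nearest to it over these libraries were bound to tend the same way, and their genotype values describe them and support nothing. Without radiation, edgeR's fit put Tspan32 at -2.94 ± 0.47 (adjusted p = 0.0207), Igf2r at -2.89 ± 0.40 (adjusted p = 0.0144), Csrp3 at -2.70 ± 0.49 (adjusted p = 0.0298) and Plxnc1 at -1.32 ± 0.23 (adjusted p = 0.0245), all lower in CM, while Cd72 did not pass at -1.42 ± 0.40 (adjusted p = 0.119). Of the 12 fits without 1 library, Igf2r lost its call in 3, Tspan32 in 5, Plxnc1 in 6 and Csrp3 in 8. Ranked against the mean of Lcn2, Mmp8 and Cxcr2 alone, a profile chosen after its values were seen, the closest was Ppbp (r = 0.99), a platelet chemokine that is a ligand of CXCR2 in its processed form, with means of 23.0 (WT NIR) and 165 CPM (CM NIR) (log2 fold change 2.85 ± 0.69, adjusted p = 0.0721, edgeR). Fcer1a, the IgE receptor alpha chain of mast cells and basophils, was among the closest 5 to that profile (r = 0.98), at 8.36 and 252 CPM.

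The lower and the higher set shared chromosome 9. Camp, Ngp and Ltf lie within 1.20 Mb of chromosome 9 (chr9:109847377-111042766 in mm10), and the other 18 tested genes of that stretch included 10 with a negative and 8 with a positive fitted log2 fold change in CM without radiation, a median of -0.09. Of these 18, 0 passed edgeR's test (1.62% of all tested genes), with 3 at an unadjusted p under 0.05 (15.1%). DESeq2 called 2 (6.32%) and limma-voom 0 (1.49%). Mmp8 lies on the same chromosome (chr9:7558429-7568486) and is in the higher set. S100a8 and S100a9 lie within 26.7 kb on chromosome 3 (chr3:90669071-90695721). Of the 7 other tested S100a genes of that chromosome, 5 had negative and 2 positive fitted values without radiation, with 0 past edgeR's test. At an unadjusted p under 0.05 there were 3, and DESeq2 called 2 and limma-voom 0, beside the same shares of all tested genes as above.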

How the data were processed

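The 12 libraries were read from 2 deposited gene tables (counts, and RPKM). Sorted LSK cells gave RNA for stranded libraries depleted of ribosomal RNA, per the labels' protocols. Build mm10 and the tools HTSeq 0.6.1p1, TopHat2 and bcl2fastq 2.18.0.12 are named per the submitters' processing notes. No source used here gives the strand setting, annotation release or read filters, so overlapping genes and close paralogs are uncertain. The authors' counts, whole reads per gene, were used for the main tests, and the deposited RPKM values (reads per kilobase, relative to library size) for comparisons between genes and in alternatives.

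Genes were kept by filterByExpr (minimum count 10, minimum total 15), which left 14599 of 25078. Group means over all 12 libraries were fitted with TMM scaling by edgeR 4.0.16's quasi-likelihood test, in R 4.3.3, with Benjamini-Hochberg adjustment over the genes of a contrast and a threshold of 0.05. DESeq2 1.42.0 and limma 3.58.1 (voom, and trend on log2(RPKM + 0.1) or log2(RPKM + 1)) were alternatives, beside other filters, size factors, the animal as a block, the library series as a term and fits without single libraries. CPM are TMM-scaled, and log2 CPM used a prior count of 2. edgeR's test was also run on simulated counts, drawn independently for each library with no effect shared by the libraries of an animal. No result here rests on that simulation. An animal's NIR library and its IR library share its number in the labels, and their deviations from the group means correlated at 0.67, 0.50 and 0.41 in WT and 0.79, 0.84 and 0.13 in CM, so the block is the animal. No 2 libraries agreed within sampling noise (the lowest chi-square per degree of freedom was 14.7). The labels give separate animals as replicates, and with 3 a group the precision is set by the spread between animals.

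The genes followed and all lists were chosen with earlier results of these data known. Named genes were the 10 members, any gene of a context list past 5% or else up to its first 3 genes, and the 5 genes closest to the mean of the tested members, with exceptions stated in the text; the values of 1 gene that the rule names are not reported here. Sequences are from RefSeq's table of start regions on GRCm38.p6, which held 9 of the 10 members.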

Additional observations from a re-analysis of the deposited data

How the results depend on the processing

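Over the 5 comparisons and the alternatives run, the number of members called differed with the libraries kept, the test and the scale. For the 4 members called without radiation (main count 4), DESeq2's test called 8, limma-voom 2, RPKM + 0.1 2, the library series as a term 1 and the fit without both libraries of CM animal 3 2. Leaving out 1 library gave 0 to 6. After radiation (main count 0) DESeq2 called 4, the fits with no low-count filter, RPKM + 0.1 and RPKM + 1 each 1, the fit without CM animal 3 2, and leaving out 1 library 0 to 3. The median log2 fold change of the members without radiation was -1.43 on RPKM + 1, against -3.80, and -4.04 to -3.33 without 1 library. Their median ran from -3.25 to -1.19 after radiation, from -0.53 to 0.18 for the WT response, 0.25 to 1.92 for the CM response and 0.46 to 2.21 for the difference of responses, without 1 library each.

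Over all genes, 237 were called in CM against WT without radiation (DESeq2 922, without CM animal 3 147, without 1 library 4 to 914) and 97 after it (DESeq2 652, limma-voom 156, at least 1 CPM in 3 libraries 57, RPKM + 1 162, library series 14, without CM animal 3 204, without 1 library 3 to 270). The WT response held 17 (DESeq2 140, limma-voom 31, RPKM + 0.1 40, RPKM + 1 52, without CM animal 3 1, without 1 library 1 to 49), the CM response 1 (DESeq2 18, without CM animal 3 0, without 1 library 0 to 3) and the difference of responses 0 (RPKM + 1 1, without 1 library 0).

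With the animal as replicate block, which can be fitted for the radiation responses and their difference, 163 genes were called in WT and 0 in CM, and the members called stayed at 0 in all 3. The blocked CM changes were 1.22 for S100a8, 1.13 for S100a9, 1.85 for Ngp, 2.19 for Camp and 1.94 for Ltf (log2).

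No value that changed sign had passed the test. In the WT response Ngp was -0.06, against 0.090 by limma-voom, 0.094 with the block, and 0.084 and 0.079 on RPKM + 0.1 and RPKM + 1. In the CM response Lcn2 was -0.04, against 0.050 by limma-voom and with the block, 0.057 and 0.055 on RPKM + 0.1 and RPKM + 1, and 0.36 without CM animal 3, where Ltf was -0.24, Mmp8 0.069 and Cxcr2 0.19. In the difference of responses Mmp8 was -0.21, against 0.18 by limma-voom and with the block, 0.17 and 0.16 on RPKM + 0.1 and RPKM + 1, 0.026 with the library series and 0.58 without CM animal 3. Without 1 library, the WT response ran from -0.63 to 0.18 for S100a8, -0.60 to 0.22 for S100a9, -1.01 to 0.028 for Camp, -0.44 to 0.61 for Ngp, -0.61 to 0.12 for Ltf and -0.93 to 1.39 for Mmp9. The CM response ran from -0.48 to 0.28 for Lcn2, -1.24 to 0.25 for Mmp8 and -0.56 to 0.29 for Cxcr2. The difference of responses ran from -0.90 to 1.42 for Mmp9, -0.18 to 0.58 for Lcn2 and -0.73 to 0.76 for Mmp8. The cause was not tested. Counts of 10 or fewer in at least 1 library limit Mmp9, Retnlg, and Camp and Ltf in CM.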
